A study of Mus musculus with 12 samples.

Results

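Collagen crosslinking and hydroxylation enzymes were followed in the mouse cecum through 10 genes, namely the lysyl oxidases Lox, Loxl1, Loxl2, Loxl3 and Loxl4, the lysyl hydroxylases Plod1, Plod2 and Plod3, the prolyl hydroxylase subunit P4ha1 and the collagen chaperone Serpinh1. They were chosen by gene name, and all 10 were on the array, where they make up 10 of 37074 gene names and 19 of 56605 probes that are not controls. Transcripts were measured on 12 Agilent arrays of 1 colour, 1 array per sample, in a study of how adhesions form after injury of the cecal surface. The 4 groups, with 3 arrays each, all came from the cecum of C57BL/6 mice without a stated genetic change. The sham group was operated on without cauterization, and its tissue was taken at 0 h according to the methods. The other groups were burned by bipolar forceps on the cecum and sampled after 3 h, after 12 h or after 72 h. The age of the mice is not given in the sources used here. The methods describe the replicates as biological.

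The labels call every mouse male, but the arrays go against this. Xist, which is transcribed from the inactive X chromosome of females, was well above background on all 12 arrays. Ddx3y and Eif2s3y, carried on the Y chromosome, were well above background on 0 arrays. Of the 3 probes for the Y-linked gene Uty, 1 was well above background on 1 array, and of the 6 probes for Kdm5d 1 was so on all 12 arrays. No sex is therefore attached to the groups here. As a check of the tissue, all 8 epithelial and all 6 smooth muscle marker genes were well above background on all 12 arrays, while no marker of the cecum alone was looked at.

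Fibrillar collagen is built in steps that these gene products carry out. Inside the endoplasmic reticulum, prolyl 4-hydroxylase makes the triple helix stable by hydroxylating proline, lysyl hydroxylases modify lysines of the chain, and the chaperone encoded by Serpinh1 (HSP47) binds the folded procollagen. Outside the cell, copper-dependent lysyl oxidases convert lysine and hydroxylysine side chains of collagen and elastin to aldehydes, which then join into the covalent crosslinks that give scar and adhesion tissue its strength.

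All levels are log2 intensities minus the 75th percentile of the same array, so 0 marks the signal below which 75% of the probes of that array lie. A gene was called higher or lower when its difference exceeded 2-fold with a limma adjusted p below 0.05, and counts use the brightest probe of each gene. At 3 h against sham, 1 of 10 genes was called higher (Loxl4), beside 3.14% of all gene names, and 0 were called lower, beside 4.33% of all. At 12 h, 2 were called higher (Lox and P4ha1; 3.95% of all gene names) and 0 lower (5.33%). At 72 h, 9 were called higher (4.5% of all) and 0 lower (4.4%), Loxl4 being the gene not called. Sham and 72 h arrays lay on different slides, and with slide as a block 3 of 10 were called higher at 72 h (Lox, Loxl2 and P4ha1), beside 1.54% of all gene names. A limma p before adjustment below 0.05 was met at 3 h by 1 gene higher and 2 lower. At 12 h 4 genes higher and 1 lower met it, and at 72 h 10 higher and 0 lower. The share of all gene names at this threshold is not given here. The median log2 difference of the 10 genes from sham came to 0.20 at 3 h and again 0.20 at 12 h, then 1.91 at 72 h, beside 0.06, -0.04 and -0.15 over all gene names. These comparisons share their sham arrays.

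From 3 h to 12 h, 1 gene was called higher (P4ha1; 1.86% of all gene names) and 1 lower (Loxl4; 1.6%). From 12 h to 72 h, 7 were called higher (4.49%) and 0 lower (2.94%), with 0 genes lower at an unadjusted p below 0.05 too. Loxl4, Plod3 and P4ha1 were the genes not called in that step. The median difference between 72 h and 12 h was 1.88 for the 10 genes and -0.12 for all gene names. In these bulk samples, fewer cells of a type and less RNA per cell cannot be told apart, nor can their opposites.

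**Figure D1:**
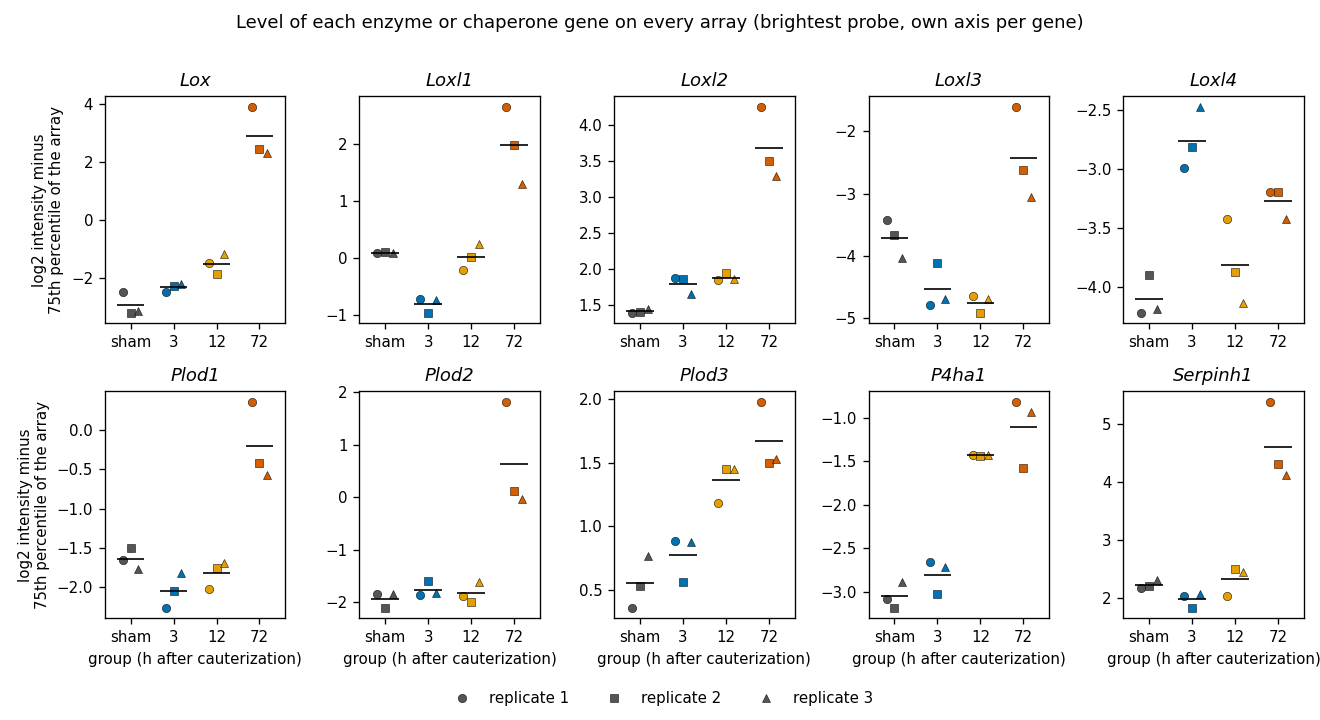
Level of the 10 genes on every array (log2 intensity less the array's 75th percentile, brightest probe, a separate vertical axis for each gene) in sham tissue and at 3, 12 and 72 h, with a line at each group mean and a marker shape for each replicate. All 3 arrays at 72 h lie above all 3 sham arrays for each of the 10 genes, and the share of all gene names separated in this way is not given here. Replicate 1 is the highest of the 72 h arrays in every panel.

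Lox encodes the founding lysyl oxidase, which is secreted as a proenzyme. Its brightest probe read -2.51, -3.23 and -3.15 in sham and -2.49, -2.28 and -2.21 at 3 h, then -1.50, -1.88 and -1.18 at 12 h and finally 3.89, 2.43 and 2.30 at 72 h. The groups stood in the order sham, 3 h, 12 h and 72 h without overlap of any neighbours, although sham replicate 1 and 3 h replicate 1 nearly met. Against sham, Lox was 57.1-fold higher at 72 h (log2 difference 5.83, SE 0.39, adjusted p = 1.94e-05) and 2.71-fold higher at 12 h (1.44, SE 0.39, adjusted p = 0.0244), whereas the difference of 0.63 at 3 h was not called (adjusted p = 0.273). The step from 12 h to 72 h was 4.40 (SE 0.39, adjusted p = 0.000186), and that from 3 h to 12 h was 0.80 and not called (adjusted p = 0.234). Over the alternatives the difference at 72 h ran from 4.59, with normexp background correction, to 6.39, with the mean of all probes, and was called in all of them. That mean takes in the other Lox probe, which was not well above background on any sham array, so 6.39 is not an exact difference. The call at 12 h was lost without sham replicate 2 (1.31, adjusted p = 0.0844), sham replicate 3 (1.35, adjusted p = 0.0666), 12 h replicate 1 (1.43, adjusted p = 0.0673) or 12 h replicate 3 (1.27, adjusted p = 0.0750), with slide as a block (1.27, adjusted p = 0.0750) and with normexp background correction (0.72, adjusted p = 0.0993). Among sham, 3 h and 12 h arrays, only 12 h replicate 3 lay on the other slide. In comparisons among these groups, the slide block and the omission of that array are therefore the same test.

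The other Lox probe was not well above background on any sham array, was so on 2 of 3 arrays at 3 h, and on all 3 at 12 h and at 72 h. It read -5.95, -7.86 and -7.06 in sham and -5.11, -5.45 and -4.89 at 3 h, then -3.86, -4.52 and -3.95 at 12 h and finally 0.92, -0.26 and -0.67 at 72 h. For a group in which a probe was not well above background on any array, the fold is given as a lower bound. It is computed against the higher of the dimmest signal well above background and the probe's own signal on each array. On that basis Lox transcript at this position was at least 46.4-fold higher at 72 h than in sham, at least 2.69-fold higher at 12 h and at least 1.31-fold higher at 3 h. The limma fit to the measured signals, sham included, gave adjusted p = 2.65e-05 at 72 h, adjusted p = 0.00278 at 12 h and adjusted p = 0.0304 at 3 h. The bound at 3 h is under 2-fold, so no rise at 3 h is taken from this probe.

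Loxl1, whose product is best known for crosslinking elastin, was measured by 1 probe (mm9 chr9:58138570-58138629). Its level was 0.09, 0.09 and 0.08 in sham and -0.73, -0.97 and -0.73 at 3 h, then -0.22, 0.01 and 0.25 at 12 h and finally 2.65, 1.98 and 1.29 at 72 h. The 3 h arrays were the lowest and the 72 h arrays the highest, while the 12 h arrays straddled the narrow sham range. Loxl1 was 3.69-fold higher than sham at 72 h (1.88, SE 0.28, adjusted p = 0.00144), which was not called with slide as a block. At 3 h it differed from sham by -0.90 (SE 0.28, adjusted p = 0.0476), which is less than 2-fold and was not called.

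Loxl2 encodes a lysyl oxidase with scavenger receptor domains that acts on the collagen IV of basement membranes. The brightest probe (mm9 chr14:70095254-70095313) read 1.39, 1.40 and 1.44 in sham and 1.87, 1.86 and 1.66 at 3 h, then 1.85, 1.94 and 1.86 at 12 h and finally 4.26, 3.50 and 3.30 at 72 h. Sham arrays were the lowest, the 3 h and 12 h arrays overlapped each other, and the 72 h arrays stood apart above them. The difference from sham was 0.39 at 3 h (adjusted p = 0.218), 0.47 at 12 h (adjusted p = 0.142) and 2.28 at 72 h (SE 0.21, adjusted p = 0.000102), the last being a 4.85-fold rise. With the other Loxl2 probe the rise at 72 h was 1.85 (SE 0.23, adjusted p = 0.000579), and the values at 3 h and 12 h, 0.12 and 0.15, overlapped with sham.

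Loxl3, a further secreted member of the family, had 1 probe. It read -3.42, -3.67 and -4.04 in sham and -4.78, -4.11 and -4.70 at 3 h, then -4.64, -4.92 and -4.69 at 12 h and finally -1.61, -2.62 and -3.05 at 72 h. The 3 h and 12 h arrays lay below every sham array and overlapped each other, and the 72 h arrays lay above. At 72 h Loxl3 was 2.43-fold higher than sham (1.28, SE 0.34, adjusted p = 0.0231), and at 12 h it differed by -1.04 (SE 0.34, adjusted p = 0.0509), just outside the call. The call at 72 h was lost without 72 h replicate 1 (0.87, adjusted p = 0.0476), sham replicate 2 (1.30, adjusted p = 0.0610) or sham replicate 3 (1.12, adjusted p = 0.0737). It was also lost with only the 2 groups compared (1.28, adjusted p = 0.0775), with normexp background correction (0.40, adjusted p = 0.0436) and with slide as a block. Without 72 h replicate 1 or 72 h replicate 3, which enter the 12 h comparison through the shared spread, the 12 h difference was called lower (-1.04 in both, adjusted p = 0.0102 and 0.0304). It was so too with the filter on dim probes (adjusted p = 0.0286), with trend and robust in limma (adjusted p = 0.0381) and with only the 2 groups compared (adjusted p = 0.0158). The larger step was from 12 h to 72 h, at 2.32 (SE 0.34, adjusted p = 0.00164), and was under 2-fold with normexp (0.73).

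Loxl4, the remaining lysyl oxidase, had 3 probes. Its brightest probe (mm9 chr19:42667320-42667379) read -4.22, -3.90 and -4.19 in sham and -2.99, -2.82 and -2.47 at 3 h, then -3.43, -3.88 and -4.14 at 12 h and finally -3.19, -3.20 and -3.42 at 72 h. The 3 h arrays were the highest of the 4 groups, the 12 h arrays overlapped with sham, and the 72 h arrays lay between those of 3 h and those of sham. Loxl4 was 2.54-fold higher than sham at 3 h (1.34, SE 0.20, adjusted p = 0.00155), and it fell by 1.05 from 3 h to 12 h (SE 0.20, adjusted p = 0.0119). That fall was under 2-fold, and so not called, without 3 h replicate 3 (-0.91, adjusted p = 0.0377) or without 12 h replicate 3 (-0.89, adjusted p = 0.0404), and likewise with slide as a block (-0.89), with normexp (-0.47) and with the percentile over probes above background (-0.99). With only the 2 groups compared its adjusted p = 0.0700. The 3 h rise was under 2-fold with normexp (0.47) and with the mean of all probes (0.94). At 72 h the difference from sham was 0.83 (SE 0.20, adjusted p = 0.0149), a 1.78-fold change that was not called.

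The 3 probes for Loxl4 disagreed in size. The second, which was well above background on 2 of 3 sham arrays and on 1 of 3 at 12 h, read -4.54, -4.97 and -2.77 at 3 h and -5.43, -5.25 and -4.88 in sham, so that 3 h replicate 3 stood far above the rest. Its 2.14-fold difference at 3 h was not called (SE 0.49, adjusted p = 0.154), and at 72 h it gave -0.12 (adjusted p = 0.877). With the third probe (mm9 chr19:42668733-42668792) the differences from sham were 0.40 at 3 h (adjusted p = 0.164) and 0.61 at 72 h (adjusted p = 0.0405), neither above 2-fold. At 12 h these 2 probes gave -0.71 and -0.36, against 0.29 with the brightest, so the direction of Loxl4 at 12 h depends on the probe. From 3 h to 12 h they differed by -1.80 (limma adjusted p = 0.0491, called lower) and -0.75 (limma adjusted p = 0.0325, under 2-fold), without overlap of the groups. With slide as a block these differences were -1.47 and -0.78, and neither was called (limma adjusted p = 0.148 and 0.0751).

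**Figure D2:**
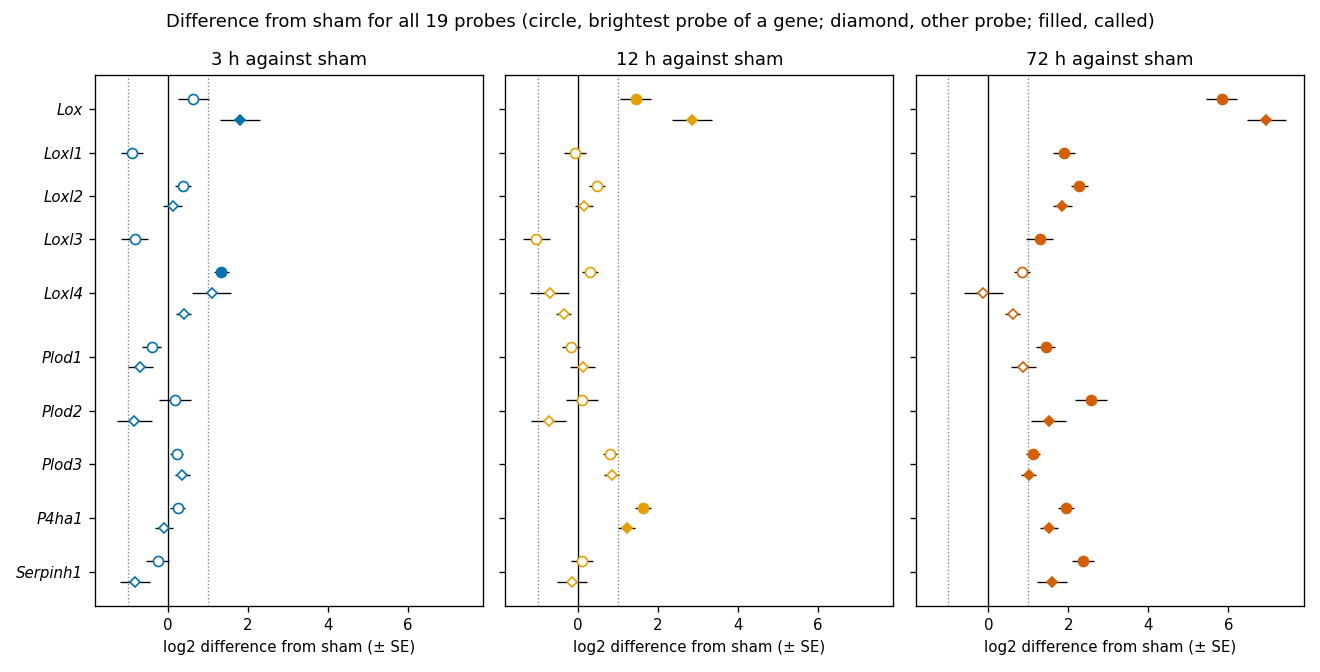
Log2 difference from sham (horizontal axis, with its SE) at 3, 12 and 72 h for all 19 probes; circles are the brightest probe of a gene, diamonds the other probes, filled markers the probes called, and dotted lines mark 2-fold. At 72 h 15 of 19 probes were called higher (4.08% of all probes), but only 5 with slide as a block (1.34%), namely both Lox and both Loxl2 probes and the brightest of P4ha1, against 2 at 3 h (2.84%) and 4 at 12 h (3.71%); these counts include the other Lox probe, whose sham level was not well above background, so its values are not exact folds and its bound at 3 h is under 2-fold.

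Plod1 encodes the lysyl hydroxylase that acts on lysines within the helical part of collagen. Its level was -1.65, -1.50 and -1.77 in sham and -2.26, -2.05 and -1.82 at 3 h, then -2.03, -1.75 and -1.69 at 12 h and finally 0.36, -0.42 and -0.57 at 72 h. The 3 h arrays lay just below sham, the 12 h arrays overlapped with both, and the 72 h arrays stood clear above. At 72 h Plod1 was 2.70-fold above sham (1.43, SE 0.23, adjusted p = 0.00224; not called with slide as a block), whereas the 3 h and 12 h differences were -0.40 (adjusted p = 0.243) and -0.18 (adjusted p = 0.665). The other Plod1 probe, which was well above background on 1 of 3 arrays at 3 h, gave 0.87 at 72 h and was not called (adjusted p = 0.0761).

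Plod2, whose product hydroxylates the telopeptide lysines from which the most stable crosslinks form, was measured by 2 probes. The brightest probe (mm9 chr9:92502483-92502542) read -1.85, -2.11 and -1.85 in sham and -1.87, -1.60 and -1.82 at 3 h, then -1.89, -2.01 and -1.62 at 12 h and finally 1.82, 0.11 and -0.03 at 72 h. Sham, 3 h and 12 h overlapped throughout, and the 72 h arrays lay above them, with replicate 1 well above the others. Plod2 was 5.94-fold higher than sham at 72 h (2.57, SE 0.40, adjusted p = 0.00187; not called with slide as a block), beside 0.17 at 3 h (adjusted p = 0.790) and 0.10 at 12 h (adjusted p = 0.961). Its 72 h level exceeded that at 12 h by 2.47. Without 72 h replicate 1 these 2 differences fell to 1.98 from sham and 1.88 from 12 h, and with normexp to 1.99 and 1.97, all still called. With the other probe, well above background on 2 of 3 arrays at 3 h, the difference was 1.51 at 72 h (SE 0.44, adjusted p = 0.0368; 0.38 with SE 0.71 and adjusted p = 0.794 under the slide block, so not called), -0.84 at 3 h (adjusted p = 0.213) and -0.73 at 12 h (adjusted p = 0.293), so the probes had opposite signs at 3 h and 12 h.

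Plod3 encodes an enzyme that both hydroxylates lysine and adds sugars to hydroxylysine. Its level was 0.36, 0.53 and 0.76 in sham and 0.89, 0.56 and 0.88 at 3 h, then 1.18, 1.45 and 1.45 at 12 h and finally 1.98, 1.50 and 1.53 at 72 h. The sham and 3 h arrays overlapped, all 12 h arrays lay above both, and the 72 h arrays lay above those of 12 h by a narrow margin. The difference from sham was 0.22 at 3 h (adjusted p = 0.378), 0.81 at 12 h (SE 0.17, adjusted p = 0.00757; 1.75-fold, not called) and 1.12 at 72 h (SE 0.17, adjusted p = 0.00174; 2.17-fold). The value at 72 h was close to the 2-fold limit, and without 72 h replicate 1 it was 0.96 and no longer called, nor was it with slide as a block. The other Plod3 probe gave 0.85 at 12 h (adjusted p = 0.00954) and 1.01 at 72 h (adjusted p = 0.00460), the latter not called under the slide block (1.16, adjusted p = 0.113).

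P4ha1, the catalytic alpha subunit of prolyl 4-hydroxylase, was called at 12 h already. The brightest probe (mm9 chr10:58834272-58834331) read -3.08, -3.18 and -2.89 in sham and -2.66, -3.03 and -2.72 at 3 h, then -1.43, -1.43 and -1.43 at 12 h and finally -0.81, -1.58 and -0.93 at 72 h. The 12 h and 72 h arrays overlapped with each other and lay clear above the sham and 3 h arrays, which overlapped too. P4ha1 was 3.07-fold higher than sham at 12 h (1.62, SE 0.19, adjusted p = 0.000343) and 3.84-fold higher at 72 h (1.94, SE 0.19, adjusted p = 0.000170). Between 3 h and 12 h it rose by 1.37 (SE 0.19, adjusted p = 0.00333), and the step of 0.32 from 12 h to 72 h was not called (adjusted p = 0.296). With normexp the difference was 0.78 at 12 h against sham and 0.62 at 12 h against 3 h, both under 2-fold, and at 72 h against sham it was 1.0 and still called, barely above the 2-fold limit. The other P4ha1 probe, well above background on 2 of 3 arrays at 3 h, was called at 12 h (1.21, SE 0.22, adjusted p = 0.00349) and at 72 h (1.52, SE 0.22, adjusted p = 0.00139) as well, but under the slide block its 72 h call was lost (1.56, adjusted p = 0.0847).

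Serpinh1, the chaperone gene, read 2.17, 2.21 and 2.32 in sham and 2.03, 1.83 and 2.07 at 3 h, then 2.04, 2.50 and 2.45 at 12 h and finally 5.38, 4.31 and 4.11 at 72 h with its brightest probe (mm9 chr7:106493971-106494030). The 3 h arrays lay just below sham, the 12 h arrays spanned the sham range, and the 72 h arrays stood apart above. Serpinh1 was 5.16-fold higher than sham at 72 h (2.37, SE 0.28, adjusted p = 0.000482; not called with slide as a block), while the differences of -0.25 at 3 h (adjusted p = 0.554) and 0.10 at 12 h (adjusted p = 0.918) were not called. The other probe that the array design names Serpinh1 (mm9 chr7:106494061-106494120) lies on the opposite strand. It was well above background on 1 sham array, on 0 at 3 h, 1 at 12 h and all 3 at 72 h, where it read -3.28, -4.39 and -4.56 and was called higher than sham (1.60, SE 0.38, adjusted p = 0.0142), a call lost under the slide block (1.34, SE 0.71).

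On the 72 h arrays, the same animal was the highest for all 10 genes: replicate 1 exceeded the other arrays of its group throughout, and replicate 3 was the lowest for 8 of 10. Without replicate 1, 7 of 10 genes were called higher than sham at 72 h, beside 3.72% of all gene names, Loxl3 and Plod3 being lost. Sham arrays lay on slide 1 and 72 h arrays on slide 2, and only the 12 h group was on both, with replicates 1 and 2 on slide 1 and replicate 3 on slide 2. With slide as a block, 3 of 10 genes were called higher at 72 h against sham, beside 1.54% of all gene names, namely Lox (5.33, adjusted p = 0.00691), Loxl2 (2.31, adjusted p = 0.0191) and P4ha1 (1.94, adjusted p = 0.0277). The estimates for Plod2 (2.24, SE 0.75, adjusted p = 0.146), Serpinh1 (2.19, SE 0.53, adjusted p = 0.0623) and Loxl1 (1.53, SE 0.51, adjusted p = 0.144) kept their direction without a call. So did those for Plod1 (1.23, adjusted p = 0.160), Loxl3 (1.19, adjusted p = 0.305) and Plod3 (0.99, adjusted p = 0.134). Loxl4, not called without the block either, was at 1.32 (SE 0.32, adjusted p = 0.0623). The SE in this fit was larger, since the 12 h arrays alone link the slides, with 1 of them on slide 2.

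Within slide 2, the 3 arrays of 72 h could be set against 12 h replicate 3. There Lox was higher by 4.06, Loxl3 by 2.26, Plod2 by 2.25, Serpinh1 by 2.15, Loxl2 by 1.83, Loxl1 by 1.72 and Plod1 by 1.48, and 6 of 10 genes were called in the fit with the slide block (1.91% of all gene names), Plod2 being lost (adjusted p = 0.0694). In that fit the step is this same difference from 1 array of 12 h, so its SE rests on the spread within the other groups and between the 12 h arrays of slide 1, not on a spread of 12 h arrays on slide 2. The corresponding values for Loxl4, P4ha1 and Plod3 were 0.87, 0.32 and 0.22. Within slide 1, the 12 h arrays exceeded sham by 1.62 for P4ha1 (adjusted p = 0.00166 with the block) and by 1.27 for Lox (adjusted p = 0.0750, not called). The rise of Loxl4 at 3 h against sham, 1.34, lies within slide 1 altogether.

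Genes of the same pathway were counted in the same comparisons. Of 16 other hydroxylation and folding enzymes, 8 were called higher at 72 h, with a median of 1.03. The largest were P4ha2, a sister catalytic subunit (2.35, SE 0.23, adjusted p = 0.000156), the prolyl isomerase Fkbp10 (2.17, SE 0.31, adjusted p = 0.00131), P4ha3 (1.68, SE 0.52, adjusted p = 0.0455) and the prolyl 3-hydroxylase family gene P3h3 (1.43, SE 0.20, adjusted p = 0.00120). In the same list, 0 were called higher at 3 h and at 12 h, with medians of -0.40 and -0.26. By limma p before adjustment, 0 were higher and 6 lower at 3 h, and 2 were higher and 6 lower at 12 h. With the slide block, 1 of 16 was called higher at 72 h, with a median of 0.88. The 1 gene called lower at both was Colgalt2, named here after its values were seen, whose probe was well above background on only 1 sham array.

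The substrates of crosslinking are fibrillar and basement membrane collagens and elastin. Of 8 collagen and elastin genes, 1 was called lower at 3 h (Col5a2, -1.52, SE 0.33, adjusted p = 0.0108), 4 were lower at 12 h and 8 were higher at 72 h, with medians of -0.67, -1.07 and 1.86. At 12 h Col1a2 differed from sham by -1.86, Col1a1 by -1.66, Col3a1 by -1.24 and Col5a2 by -1.09. Col4a1 (0.34), Col4a2 (0.15) and Eln (-0.09), added here after their values were seen, were not called then, nor was Col5a1 (-1.05). At 72 h Col1a1 was at 2.99 (SE 0.26, adjusted p = 8.56e-05), Col5a1 at 2.50, Col3a1 at 2.06 and Col1a2 at 2.01. The 12 h time point thus held Lox and P4ha1 above sham and 4 substrate genes below it, each in its own test. With the slide block, Lox was not called at 12 h, 3 substrates were lower at 12 h and 2 were higher at 72 h, and within slide 2 the median step from 12 h to 72 h was 2.92.

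Among 17 procollagen processing and extracellular crosslinking partners, 9 were called higher at 72 h, with a median of 1.22. They were led by the procollagen N-proteinase Adamts2 (2.22, SE 0.41, adjusted p = 0.00451), Bmp1 (2.0, SE 0.31, adjusted p = 0.00197), which cleaves both procollagen and the Lox proenzyme, Adamts14 (1.85) and the elastic fibre protein gene Efemp2 (1.75). With the slide block, 2 of 17 were called higher at 72 h, with a median of 1.08. At 12 h 5 were called lower, including Lum (-1.67), Pcolce (-1.53) and Fbln5 (-1.42), and the transglutaminase gene Tgm2 was called higher against that direction (1.81, SE 0.17, adjusted p = 8.26e-05). At 3 h 0 of 17 were called by limma, although 2 were higher and 4 lower at an unadjusted p below 0.05. Of 4 copper supply genes, 0 were called at any of the 3 times. At an unadjusted limma p below 0.05, 1 was higher and 2 lower at 12 h, and 1 was higher and 1 lower at 72 h, against 0 at 3 h.

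**Figure D3:**
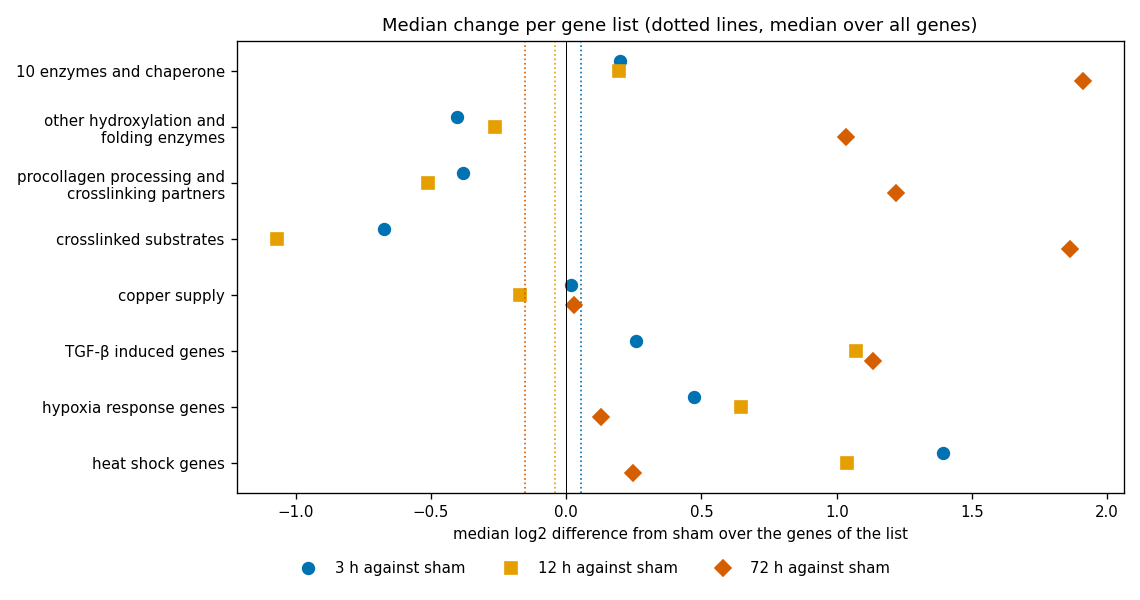
Median log2 difference from sham (horizontal axis) over the genes of each list at 3, 12 and 72 h, with dotted lines at the median over all genes at the same time. Of the 8 lists plotted, the 10 enzyme and chaperone genes (1.91) and the crosslinked substrates (1.86) have the highest medians at 72 h, whereas the heat shock genes (1.39) are highest at 3 h.

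Lox, Plod2 and P4ha1 are textbook targets of the hypoxia-inducible factor, Serpinh1 is a heat shock gene, and many of the 10 respond to TGF-beta. Genes of these responses are therefore set beside them. Of 12 hypoxia response genes, 4 were higher and 1 lower at 3 h, 5 were higher at 12 h, and 2 were higher and 1 lower at 72 h, with medians of 0.47, 0.65 and 0.13. With the slide block 0 were called by limma at 72 h, with 3 higher and 1 lower at an unadjusted p below 0.05. Pfkfb3 (3.39, SE 0.42, adjusted p = 0.000404), Egln3 (2.13), Adm (2.10) and Hk2 (1.79) led at 12 h. At 3 h Pfkfb3 (2.51), Adm (2.0), Hk2 (1.85) and Ndrg1 (1.20) were called higher, and Ndrg1 was at -0.28 at 12 h. P4ha1, at 0.25, was not called at 3 h. From 3 h to 12 h 3 of the 12 were called higher, namely Ankrd37 (2.10), Egln3 (1.38) and Bnip3 (1.19). Ndrg1 (-1.48) was the 1 called lower, and P4ha1 rose by 1.37 in that step. A difference between the courses of P4ha1 and of these genes was not tested. Ankrd37 at 3 h (-1.65) and Car9 at 72 h (-1.35) went against the list.

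Of 10 heat shock genes, 7 were called higher at 3 h and 6 at 12 h, led at 3 h by Hspa1a (6.18, SE 0.35, adjusted p = 1.04e-05), Hspa1b (4.88), Hsph1 (2.21) and Dnajb1 (1.66). At 72 h 0 of 10 were called by limma, with 1 higher and 1 lower at an unadjusted p below 0.05 and a median of 0.25. Under a slide block 0 were called by limma, with 4 higher and 0 lower at an unadjusted p below 0.05 and a median of 0.65. Serpinh1 was at -0.25, 0.10 and 2.37 at the same times. A difference between the courses of Serpinh1 and of these genes was not tested.

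Of 7 TGF-beta induced genes, 2 were called higher at 3 h (median 0.26), 4 at 12 h (median 1.07) and 4 at 72 h (median 1.13). Acta2, which also marks smooth muscle, was called lower each time (-1.0, -1.55 and -1.01). At 72 h the genes called higher were Inhba (3.94, SE 0.29, adjusted p = 3.45e-05), Ctgf (2.35), Tgfbi (1.76) and Tgfb1 (1.13), and 3 of 7 were called higher with the slide block. Ctgf and Inhba were called at 3 h already (2.21 and 1.73), when Lox, at 0.63, was not. Tgfbi and Tgfb1 were not called at 3 h either (0.0045 and 0.26) and were called at 12 h (1.07 and 1.18). A difference between the courses of Lox and of these genes was not tested.

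Cell type markers were counted in the same way. Of 8 fibroblast markers, 2 were called higher at 72 h (Lum 1.45 and Dcn 1.17, median 0.75), after 3 had been lower at 12 h. With the slide block 0 of 8 were called by limma at 72 h, with 3 higher at an unadjusted p below 0.05. All 8 macrophage markers were called higher at 72 h (median 1.67), the largest being Fcgr1 (3.19) and Adgre1 (2.65), and 6 were with the block. All 6 smooth muscle markers were called lower at 12 h and at 72 h, with medians of -1.46 and -1.52, Myh11 being at -2.30 at 72 h, and 6 of 6 were lower at 72 h with the block too. Of 8 neutrophil markers, 6, 7 and 6 were higher at the 3 times, and 5 at 72 h with the block. Their medians were 5.27, 5.28 and 4.42, with 6 of the 8 well above background on all 12 arrays. S100a9, well above background on all arrays compared, was at 10.04, 10.82 and 10.06. Ly6g was at 3.58, 3.61 and -0.09 and Csf3r at -0.46, -0.37 and -0.41, both named after their values were seen.

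Mesothelial markers, of which 7 of 8 were measured, changed in both directions. At 3 h and 12 h 2 were called lower, Upk3b and Lrrn4, both named after their values were seen and neither well above background on any array at those times. At 72 h 3 were called higher, among them Wt1 (4.39, SE 0.58, adjusted p = 0.00085) and Upk1b (1.77). The third, Bnc1, was not well above background on any sham array. Under a slide block 1 of 7 was called higher at 72 h. Endothelial markers were called higher for 2 of 6 at 72 h (Cdh5 1.75 and Emcn 1.08), and with the block for 0 by limma, with 1 higher at an unadjusted p below 0.05. Of 8 epithelial markers, 1 was called lower at 72 h (Cdx2, -1.02), and 6 were lower at an unadjusted p below 0.05, with a median of -0.59. With the block 0 were called by limma and 1 was lower at an unadjusted p below 0.05. At 72 h 0 of 6 fat cell markers were called by limma, with 1 higher at an unadjusted p below 0.05.

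The log2 sum of the fibroblast marker intensities, of which Dcn was the brightest, on the 72 h arrays was 7.59, 7.13 and 6.83 in replicates 1, 2 and 3, against 6.31, 6.21 and 6.10 in sham. That of the endothelial markers (brightest Vwf) was 3.93, 3.29 and 2.70 at 72 h, against 2.80, 2.77 and 2.66, and that of the fat cell markers (brightest Fabp4) 7.10, 6.08 and 3.20 at 72 h, against 4.08, 4.64 and 3.74. Replicate 1, the array with the highest level of all 10 enzyme and chaperone genes, was thus also the highest of its group in these sums. In the mesothelial sum (brightest Krt19) it was the lowest at 72 h, at 6.63 against 7.04 and 7.12, beside 7.27, 7.52 and 7.48 in sham. That sum is set mainly by its brightest gene. The mean log2 level of the 7 mesothelial markers was -1.65 in sham and -0.38 at 72 h, and 3 were well above background on all 12 arrays. No rank of mesothelial content is therefore taken from the sum. In the neutrophil sum replicate 1 lay between the others, at 8.27 against 7.92 and 8.79. The macrophage sum, to which Lyz2 gave most, was 8.02, 7.99 and 8.07 at 72 h, against 6.41, 6.24 and 6.50 in sham. That of smooth muscle, led by Tagln, was 7.07, 7.32 and 7.46, against 8.62, 8.57 and 8.50. The epithelial sum, led by Krt8, was 8.49, 8.91 and 9.0 at 72 h, against 9.40, 9.54 and 9.51 in sham, and replicate 1 was the lowest of its group in the epithelial and smooth muscle sums. The part of cell type content in the levels of the 10 genes was not tested.

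Genes whose course was nearest to that of 3 of the 10 were looked for among 14655 genes well above background on all 12 arrays, by the root mean square difference between the log2 differences of each gene from its own sham mean. Plod2 was nearest to Rian (0.20), Fstl1 (0.25), Nav3 (0.28), Ppic (0.30) and Rcn1 (0.32). Serpinh1 was nearest to Rcn1 (0.14), Fstl1 (0.22), Grb10 (0.23), Ms4a7 (0.27) and Ppic (0.27). Fstl1, Ppic and Rcn1 were in both sets, and at 72 h they stood at 2.41, 2.23 and 2.30 above sham. Lox had no near neighbour by this measure, the nearest being Wt1 (1.09), H19 (1.17), Has2 (1.18), Bmper (1.20) and Cyp7b1 (1.24). At 72 h these 5 stood at 4.39, 4.78, 3.75, 3.51 and 3.53, below the 5.83 of Lox itself.

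RefSeq promoter sequences (GRCm38.p6) were used for 5 of the 10 genes, 1 each, namely Loxl4, Plod1, Plod3, P4ha1 and Serpinh1. The 250 bases before each start were searched on both strands. No window of Lox, Loxl1, Loxl2, Loxl3 or Plod2 was searched, so the motif counts say nothing about these genes. ACGTG, the core of the hypoxia response element, was found in Plod3, P4ha1 and Serpinh1, beside 16.6% of 32851 promoters. The heat shock units GAANNTTC and TTCNNGAA, held by 6.69% and 7.17% of all promoters, were not in the 5 windows. TATAAA, held by 12.4%, was in that of Plod1. The stretches with ACGTG are shown because 3 of the 5 windows hold this motif, with the match in capitals on whichever strand it lies. They come from chr5:136986953-136986981 (plus strand), chr10:59323268-59323295 (plus strand) and chr7:99353394-99353422 (minus strand), and the match begins 54, 16 and 171 bases before the start.
Plod3: cttgaagtcattACGTGatgttcccttgg
P4ha1: tgtgacagagcgCACGTagcgagggctg
Serpinh1: accctgcttttcCACGTccaggaccgcgg
A match describes the letters of the window, not a bound site or a cause, and a window without one says only that these letters are not in it.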

How the data were processed

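For every array the authors supplied Feature Extraction 11.5.1.1 results, whose deposited intensity is free of local background and spatial trend and was not yet matched between arrays. The authors' own log2 matrix, scaled in GeneSpring and centred on the median of each gene, served as an alternative here. Samples were grouped by the treatment on their labels.

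Intensities were put on a log2 scale after removing control spots and outlier spots (53 to 152 per array). Replicate spots of the same probe were averaged, and each array was shifted by its 75th percentile. limma 3.58.1 in R 4.3.3 fitted the 4 group means over 12 arrays, and p-values were adjusted by Benjamini-Hochberg over 56605 probes. The fit was tested on simulated data, and no outcome of that test is given here. Between 60.2% and 65.2% of probes per array were well above background, and 0 spots were saturated. The number of arrays limits the precision. Array files give probe positions in mm9, a build without a genome here, so exons and untranslated regions were not assigned. Figures were drawn with matplotlib 3.10.9 in Python 3.11.15.

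The 10 genes, the further lists and the markers were chosen with earlier results of these data known. The rule for naming genes took all 10 with every probe, up to 4 genes per further list with the largest change among called genes well above background on all arrays compared, genes called against their list, the 5 nearest genes for Lox, Plod2 and Serpinh1, and Xist with 4 Y-linked genes. The text departs from it where fewer than 4 genes of a list are named, mostly among the markers, and where the brightest marker of a list is named. The list of TGF-beta induced genes is given without 1 gene, which is not reported here.

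The alternatives tried were quantile normalization, a percentile taken over probes above background only, normexp (offset 50), the matrix of the authors, dropping dim probes, keeping outlier spots, a block for slide or for replicate number, limma with trend and robust, fitting only the 2 groups compared, averaging the probes per gene, and omitting each array in turn.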

Additional observations from a re-analysis of the deposited data

Results flagged for a closer look

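Genes are flagged here because their effects against sham at neighbouring time points differed when that difference was itself tested with limma. In 7 of the 10 genes the 72 h level was called higher than the 12 h level, beside 4.49% of all gene names. The log2 difference was 4.40 for Lox (adjusted p = 0.000186), 1.96 for Loxl1 (adjusted p = 0.00149), 1.81 for Loxl2 (adjusted p = 0.000553) and 2.32 for Loxl3 (adjusted p = 0.00164). It was 1.61 for Plod1 (adjusted p = 0.00150), 2.47 for Plod2 (adjusted p = 0.00278) and 2.27 for Serpinh1 (adjusted p = 0.000790). All 3 arrays at 72 h lay above all 3 at 12 h in 9 of the 10 genes, these 7 included. The share of all gene names separated in this way is not given here. Without 72 h replicate 1 the Plod2 step was 1.88. With slide as a block it was not called (2.25, adjusted p = 0.0694 by limma), and with normexp the Loxl3 step was under 2-fold (0.73).

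Between 3 h and 12 h, P4ha1 rose by 1.37 (limma adjusted p = 0.00333) and Loxl4 differed by -1.05 (limma adjusted p = 0.0119), without overlap of the groups, beside 1.86% of all gene names called higher and 1.6% lower. The Loxl4 fall was under 2-fold without 3 h replicate 3 (-0.91) or 12 h replicate 3 (-0.89), with slide as a block (-0.89), with normexp (-0.47) and with the percentile over probes above background (-0.99). With only the 2 groups compared its limma adjusted p was 0.0700, and with normexp the P4ha1 rise was 0.62. The other Loxl4 probes gave -1.80 and -0.75 from 3 h to 12 h.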

How the results depend on the processing

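Of 483 values for called differences of the 10 genes under the alternatives, 453 kept their call, 30 kept only their direction and 0 reversed by the limma fits. Of 667 values for differences not called, 5 became called, all for Loxl3 at 12 h, and 10 reversed. In comparisons without the 72 h group, the slide block and the omission of 12 h replicate 3 are the same test, and both are counted. The cause was not tested for any change below.

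With normexp, 0 of the 10 genes were called at 3 h, 0 at 12 h and 0 between 3 h and 12 h, and 830, 1349 and 1260 of all gene names at 3, 12 and 72 h, with 582 for 12 h against 3 h and 1070 for 72 h against 12 h. At 72 h 8 of the 10 were called with normexp, Loxl3 being lost (0.40). With only the 2 groups compared 8 were called at 72 h, beside 3056 of all gene names. In the main fit the counts over all gene names were 2768, 3442, 3300, 1282 and 2755, in the order given for normexp. With slide as a block, 1 of the 10 was called at 12 h, 3 at 72 h and 1 between 3 h and 12 h. Of all gene names, 3633 were called at 12 h, 1148 at 72 h, 902 between 3 h and 12 h and 1221 between 12 h and 72 h. Between 3 h and 12 h, 1 of the 10 was called with the percentile over probes above background, beside 1257 of all gene names. With only the 2 groups compared, 1 of the 10 was called in that step, beside 852 of all gene names. The mean of all probes called 0 of the 10 at 3 h, beside 2441 of all gene names.

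Plod2 reversed at 12 h with the slide block (-0.0102) and with the mean of all probes (-0.32), which also gave -0.33 at 3 h and 0.0145 between 3 h and 12 h. The mean of all probes reversed Loxl4 (-0.26) and Serpinh1 (-0.0212) at 12 h too; the latter mean takes in the probe on the opposite strand, which was well above background on 1 sham array and 1 array at 12 h.

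Leaving out each array gave 1 to 1 of the 10 called at 3 h, 1 to 3 at 12 h, 7 to 9 at 72 h, 1 to 2 between 3 h and 12 h and 7 to 7 between 12 h and 72 h. Over all gene names it gave 2182 to 2914, 2881 to 3748, 2757 to 3353, 867 to 1291 and 2103 to 3077. Plod2 ranged from -0.0102 to 0.185 at 12 h and from -0.185 to 0.0100 between 3 h and 12 h, and Loxl1 from -0.190 to 0.0417 at 12 h. Its reversal came without 12 h replicate 1, and those of Plod2 without 12 h replicate 3, and without 3 h replicate 2 or 12 h replicate 2.

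Replicate numbers showed no pairing: over 18 pairs of arrays with the same number in different groups, r ran from -0.40 to 0.26, with a median of -0.03. With replicate number as a replicate block, 1, 2 and 9 of the 10 were called at 3, 12 and 72 h, and 2641, 3328 and 3162 of all gene names.

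Quantile normalization moved the median of all gene names at 72 h from -0.15 to -0.02 and the calls there from 1668 higher and 1632 lower to 1851 and 1098, with 9 of the 10 called higher in both. Signal over background limits the dimmest probes, as given for each.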
